A study of Mus musculus with 3 samples.

Results

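Cd69, Cd44, Cd5, Cd6, Cd2 and Cd48 encode 6 proteins of the T cell surface, and their mRNA was followed here in single CD4+ T cells before and after activation. The genes were listed by name and each matched 1 of the 31053 genes of the files, so all 6 are described in all 3 libraries. Each library was made from cells of the spleen of C57BL/6 mice, young males in the methods, that were enriched for naïve CD4+ T cells on magnetic beads and later sorted as 7AAD-CD3+CD4+ cells. The first library held WT cells, which came from Ift20 f/f mice without Cre, kept in buffer without antibody (none). The second held WT cells of the same genotype after a culture of 24 h in which antibodies to CD3 and to CD28 were each present at 1 μg/mL (CD3/CD28). The third held cells of Ift20 f/f CD4 cre mice, called IFT20-KO, after the same 24 h of culture. In these mice Cre is driven by the Cd4 promoter and removes the floxed exons of Ift20 in T cells, and the controls carry the floxed alleles too. There was no library of unstimulated IFT20-KO cells. With 1 library per condition no difference has a replicate and none was tested. Every 95% interval below covers counting error only.

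CD69 appears on the surface soon after a T cell receptor is engaged and holds the egress receptor S1PR1 inside the cell. CD44 binds hyaluronan and is used as a marker of antigen-experienced T cells. CD5 and CD6 are related scavenger receptors that sit near the T cell receptor and tune its signal, and CD6 binds ALCAM on the presenting cell. CD2 and CD48 are related adhesion molecules, and in mice CD48 is the ligand of CD2. Il2ra encodes the α chain of the interleukin-2 receptor, which activated and regulatory T cells carry, and served as the gene to which the 6 were related cell by cell.

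All 6 are protein-coding genes in GENCODE M21 on the build GRCm38, the genome called mm10 in the labels. Cd69 (ENSMUSG00000030156) lies on chromosome 6, from 129267325 to 129275436 on the minus strand. Cd44 (ENSMUSG00000005087) lies on chromosome 2, from 102811141 to 102901665 on the minus strand. It has 8 coding transcripts with 9 to 19 exons, which these counts per gene do not tell apart. Cd2 (ENSMUSG00000027863) lies on chromosome 3, from 101275899 to 101287939 on the minus strand. Cd5 (ENSMUSG00000024669) and Cd6 (ENSMUSG00000024670) are neighbours on the minus strand of chromosome 19, from 10717116 to 10739002 and from 10789341 to 10830058, with 50338 bases and no other coding gene between them. Cd48 (ENSMUSG00000015355) lies on the plus strand of chromosome 1, from 171682009 to 171705258, between the related genes Slamf7 and Slamf1. No gene counted in the files overlapped any of the 6.

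The promoters of Cd5, Cd48 and Cd44, the 3 of the 6 genes with an entry in the promoter table used here, are shown to set a gene that was higher after stimulation beside one that was lower and one whose direction depended on how cells were weighted. The sequences are RefSeq's for GRCm38.p6 and run 5′ to 3′ on the strand of the gene, from 250 to 31 bases before the annotated start. They lie at chr19:10739005-10739224 (Cd5, minus strand), chr1:171681742-171681961 (Cd48, plus strand) and chr2:102901696-102901915 (Cd44, minus strand). Capitals mark GGAAA on either strand, the core to which NFAT, the factor released by calcium signals in activated T cells, binds.
Cd5: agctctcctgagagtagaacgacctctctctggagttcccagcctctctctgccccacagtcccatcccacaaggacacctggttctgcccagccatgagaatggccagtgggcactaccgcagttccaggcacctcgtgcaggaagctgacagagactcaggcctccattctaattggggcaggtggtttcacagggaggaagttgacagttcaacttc
Cd48: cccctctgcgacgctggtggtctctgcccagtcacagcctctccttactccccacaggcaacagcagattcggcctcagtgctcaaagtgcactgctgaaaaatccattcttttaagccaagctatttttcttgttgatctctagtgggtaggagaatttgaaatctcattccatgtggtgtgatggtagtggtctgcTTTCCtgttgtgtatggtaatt
Cd44: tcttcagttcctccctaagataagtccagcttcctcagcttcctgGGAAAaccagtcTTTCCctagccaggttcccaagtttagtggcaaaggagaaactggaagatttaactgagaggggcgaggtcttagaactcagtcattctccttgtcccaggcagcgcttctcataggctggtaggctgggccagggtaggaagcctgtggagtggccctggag
GGAAA was absent from this window of Cd5, occurred once in that of Cd48 and occurred 2 times in that of Cd44. It was present in 51.3% of all 32851 promoter windows of the same 220 bases. The AP-1 motif TGANTCA was in none of the 3 windows and in 6.11% of all windows. The RUNX core TGTGGT was found once, in Cd48, and in 12.7% of all windows, and the ETS core CCGGAA in none of the 3 and in 9.47% of all. Motifs were searched on both strands, and none of the 4 was taken to be a bound site.

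After the filter of the study (more than 200 genes and under 15% mitochondrial UMIs per barcode), 8031, 9903 and 13920 cells were left of unstimulated WT, stimulated WT and IFT20-KO, respectively. A unique molecular identifier (UMI) stands for 1 captured RNA molecule. The kept cells held 37133949 to 116979076 UMIs per library, with medians of 4627, 12167 and 5014.5 UMIs per cell. Ift20 itself stood at 64.4, 76.0 and 6.60 UMIs per 1000000 (CPM), so the third library had 11.5-fold less of the targeted mRNA than stimulated WT cells. The 6 T cell markers were present in every library, and all 6 activation markers were at least 1.5-fold higher after stimulation. B cell markers summed to 144 to 286 CPM, almost all of it Ighm, and myeloid markers summed to at most 0.862 CPM. The libraries shared 114 to 197 barcodes of kept cells in pairs. The methods name a 3′ kit and the labels a 5′ kit, so it was not settled which end of each transcript was counted.

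Stimulated WT cells had more Cd69, Cd5 and Cd6 mRNA and less Cd48 and Cd2 mRNA than unstimulated WT cells on the CPM scale. Cd69 showed the highest ratio of the 6, at 2.55-fold, and Cd48 the lowest, at 1.98-fold less. Of the 6, 3 genes, Cd69, Cd5 and Cd6, passed 1.5-fold upward and 1 gene, Cd48, passed it downward. Among the 13297 genes whose UMIs in the pair of libraries summed to 10 or more, 28.6% passed 1.5-fold upward and 34.3% downward. The median log2 ratio of the 6 was 0.31, against -0.09 for all these genes.

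Cd69, the early activation gene, stood at 119 CPM (115 to 122) in unstimulated WT, 303 CPM (299.5 to 306) in stimulated WT and 269.8 CPM (267 to 273) in stimulated IFT20-KO cells. Both stimulated libraries lay well above the unstimulated one. The log2 ratio of stimulated to unstimulated WT was 1.35 (1.30 to 1.39).

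Cd44, the hyaluronan receptor, had the fewest UMIs of the 6, which are not scaled by transcript length, with 585, 1490 and 1110 UMIs in the 3 libraries. This made 15.8 CPM (14.5 to 17.1) in unstimulated WT, 12.7 CPM (12.1 to 13.4) in stimulated WT and 10.4 CPM (9.82 to 11.1) in IFT20-KO cells. The summed level was thus lower after stimulation, at a log2 ratio of -0.31 (-0.45 to -0.17). When every cell was weighted alike the direction turned, as described below.

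Cd5 and Cd6, the pair of scavenger receptor genes, moved the same way. Cd5 stood at 329.5 CPM (324 to 335) in unstimulated WT, 774 CPM (769 to 779) in stimulated WT and 914 CPM (908 to 919.7) in IFT20-KO cells. Its log2 ratio after stimulation was 1.23 (1.20 to 1.26), a fold of 2.35. Cd6 stood at 185 CPM (180.5 to 189) in unstimulated WT, 351 CPM (348 to 354.5) in stimulated WT and 359 CPM (356 to 363) in IFT20-KO cells. Its log2 ratio after stimulation was 0.93 (0.89 to 0.96), a fold of 1.90. The other coding neighbour of Cd5, Vps37c, went from 11.5 to 4.92 CPM, and Slc15a3 beyond Cd6 was at no more than 0.103 CPM in any library.

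Cd2 and Cd48, the receptor and its ligand, were both lower in CPM. Cd2 stood at 392 CPM (385 to 398) in unstimulated WT, 269 CPM (266 to 272) in stimulated WT and 208 CPM (205 to 211) in IFT20-KO cells. Its log2 ratio after stimulation was -0.54 (-0.57 to -0.51). Cd48 stood at 164 CPM (160 to 168) in unstimulated WT, 83.0 CPM (81.3 to 84.7) in stimulated WT and 78.6 CPM (76.9 to 80.3) in IFT20-KO cells. Its log2 ratio was -0.98 (-1.03 to -0.94), while the genes on either side of it, Slamf7 and Slamf1, had log2 ratios of 4.73 and 3.26. The plot of levels by library shows these values for all 6 genes.

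**Figure D1:**
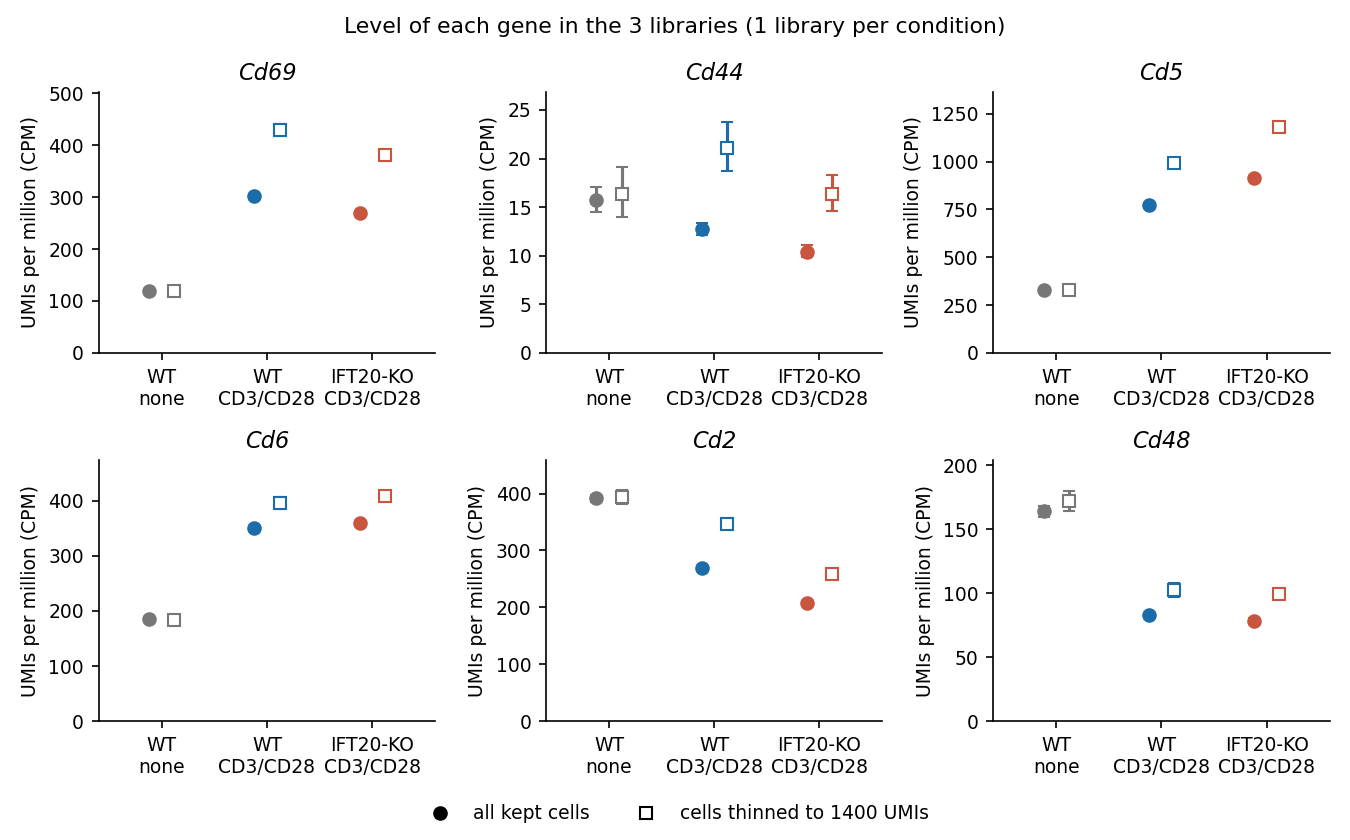
Level of each gene in CPM in the 3 libraries, for all kept cells (circles) and for cells thinned to 1400 UMIs (squares), with exact 95% Poisson intervals. Cd69, Cd5 and Cd6 sit higher in both stimulated libraries, Cd48 sits lower, and the square of Cd44 in stimulated WT lies above that of unstimulated WT while the circle lies below.

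Stimulated WT cells also gave more UMIs per cell, and on that scale the sign of some of the 6 changed. Per cell, and with no scaling to the library total, Cd2 and Cd48 had log2 ratios of 0.81 and 0.37 and Cd44 of 1.05, so that 5 of the 6 genes passed 1.5-fold upward and none downward. Of all 13297 genes, 71.1% passed upward and 9.21% downward on this scale, and their median log2 ratio was 1.26. On the CPM scale a gene is compared with the other mRNA of its library, and on the scale of UMIs per cell with the number of captured cells. The lower CPM of Cd2 and Cd48 therefore stood beside a higher mean number of their UMIs per cell.

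The level of every member also depended on the UMI count of the cell it was read from, most steeply in stimulated WT cells. Cells were put in 4 bands, under 3000, 3000 to under 6000, 6000 to under 12000, and 12000 or more UMIs. Cd69 in stimulated WT cells stood at 1017, 538, 301 and 268 CPM from the lowest band to the highest, and in unstimulated WT cells at 247, 115, 107 and 68.8 CPM. Cd44 in stimulated WT cells stood at 57.7 CPM (50.4 to 65.8) in the lowest band and at 11.7 CPM (10.96 to 12.4) in the highest. The lowest band held 2147 of the 9903 stimulated WT cells but few of their UMIs, so it weighs little in a summed CPM.

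Within bands, Cd69, Cd5 and Cd6 were higher in stimulated than in unstimulated WT cells in all 4 of them. Their log2 ratios were 1.5 to 2.23 for Cd69, 0.94 to 2.32 for Cd5 and 0.60 to 1.39 for Cd6. Cd44 had a log2 ratio of 1.14 (0.71 to 1.60) in the lowest band and of 0.57 (0.02 to 1.08) between 3000 and 6000 UMIs. It had -0.72 (-1.04 to -0.39) between 6000 and 12000 UMIs and -0.17 (-0.98 to 0.79) in the highest band. Cd2 had 0.58 (0.47 to 0.69) in the lowest band and -0.60 (-0.76 to -0.44) in the highest. Between them it had 0.11 (-0.01 to 0.23) from 3000 and -0.20 (-0.25 to -0.14) from 6000 UMIs. Cd48 had 0.04 (-0.14 to 0.22) in the lowest band and -1.05 (-1.28 to -0.80) in the highest. The direction of Cd2 thus differed between shallow and deep cells, and the lower level of Cd48 was seen in cells of 6000 or more UMIs. That of Cd44 differed between cells under 6000 UMIs and cells of 6000 to under 12000, and its interval spanned 0 in the highest band. The highest band held 62 unstimulated cells.

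**Figure D2:**
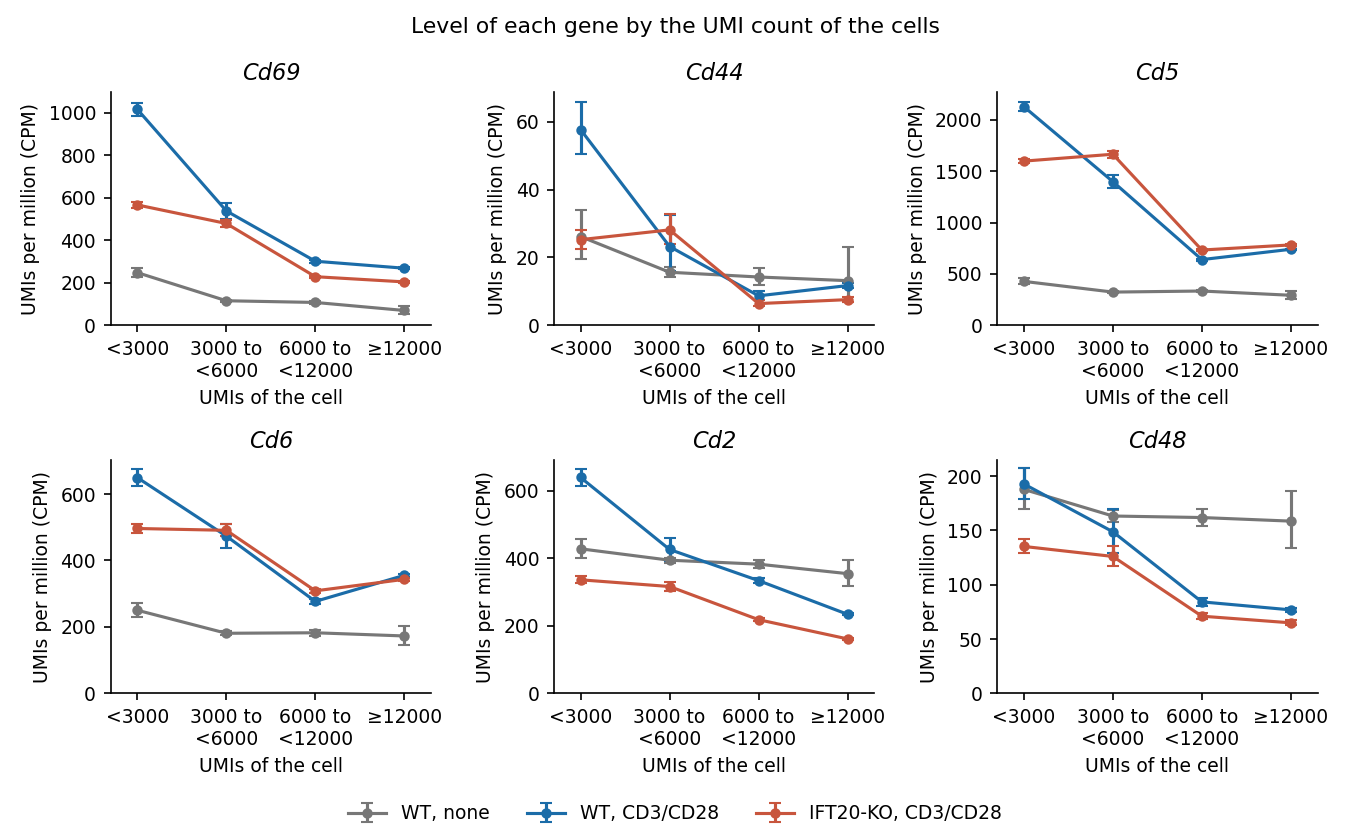
CPM of each gene (vertical axis) by the UMI count of the cells (horizontal axis, 4 bands) in unstimulated WT, stimulated WT and IFT20-KO cells, with exact 95% Poisson intervals. In stimulated WT cells all 6 genes have their highest CPM in cells under 3000 UMIs, Cd69 at 1017 CPM and Cd5 at 2130 CPM.

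To set all cells to 1 depth, each was thinned at random to 1400 UMIs, and shallower cells were left out (801 of unstimulated WT, 421 of stimulated WT and none of IFT20-KO). The levels then stood at 119.6, 429 and 380 CPM for Cd69 in unstimulated WT, stimulated WT and IFT20-KO cells. Cd44 stood at 16.4 CPM (14.0 to 19.1), 21.1 CPM (18.7 to 23.7) and 16.4 CPM (14.6 to 18.3). Its log2 ratio after stimulation was then 0.36. Without a random draw, the mean share of a cell's UMIs over the same cells gave 0.34 for Cd44, and over all kept cells 0.14. Cd2 stood at 394, 346 and 259 CPM and Cd48 at 172, 102 and 99.8 CPM. Their log2 ratios after stimulation narrowed to -0.19 and -0.75, while that of Cd2 in IFT20-KO against WT widened to -0.42. The direction of Cd69, Cd5, Cd6, Cd2 and Cd48 was the same under all 9 alternatives on a per-UMI scale, and that of Cd44 under 6 of the 9. Cd2 was nearly level, at -0.04, in cells with 3000 to 10000 UMIs.

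**Figure D3:**
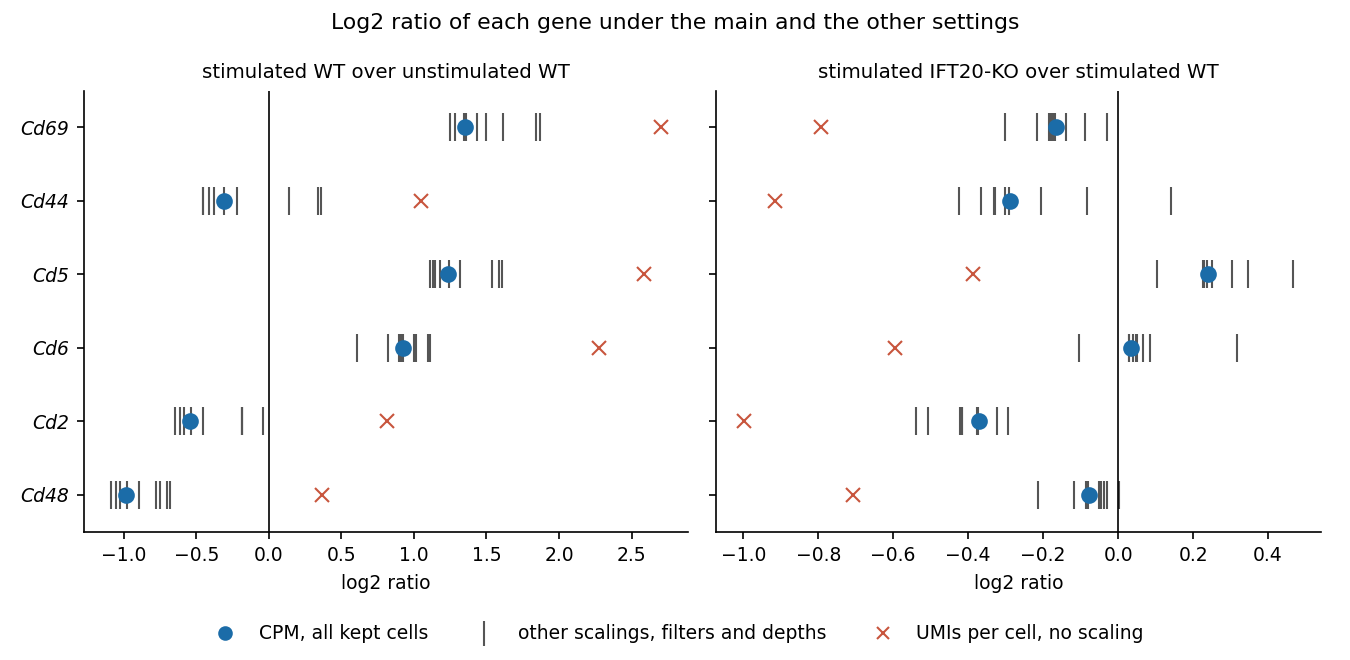
Log2 ratio of each gene for stimulated over unstimulated WT (left) and for stimulated IFT20-KO over stimulated WT (right), as CPM of all kept cells (circles), under 9 other scalings, filters and depths (bars) and as UMIs per cell with no scaling (crosses). Bars of Cd44 lie on both sides of 0 in both comparisons, and those of Cd69 and Cd5 on 1 side.

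The share of cells with at least 1 UMI was compared after thinning, since deeper cells show more genes. Cd69 was detected in 13.6% of thinned unstimulated WT cells (12.8 to 14.4), 32.3% of stimulated WT cells and 31.7% of IFT20-KO cells. As counted, without thinning, these shares were 33.1%, 72.2% and 62.8%. Cd5 was detected in 33.4%, 61.9% and 70.1% of thinned cells and in 63.9%, 93.4% and 93.6% of cells as counted. Cd6 was detected in 21.5%, 38.7% and 40.2% of thinned cells and in 49.7%, 83.1% and 77.6% as counted.

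In stimulated WT cells the shares of Cd2 and Cd48 were lower than in unstimulated WT cells after thinning and higher as counted, while in IFT20-KO cells they were lower on both counts. Cd2 was detected in 41.2%, 33.3% and 27.7% of thinned cells, but in 76.3%, 79.6% and 64.1% of cells as counted. Cd48 was detected in 21.5%, 12.9% and 12.6% of thinned cells, but in 50.4%, 55.7% and 41.2% as counted. Cd44 was detected in 2.25% (1.93 to 2.62), 2.73% (2.41 to 3.08) and 2.10% (1.87 to 2.36) of thinned cells and in 6.69%, 12.4% and 6.86% as counted. The intervals of Cd44 overlapped between unstimulated and stimulated WT cells. No cell type that lacks these genes was at hand as a background. Of the markers of other cell types, Ighm was detected in 16.5% to 31.8% of thinned cells and Cd8b1 in 1.16% to 4.16%, and myeloid markers in no more than 0.083%. In unstimulated WT cells the shares of Cd69, Cd44, Cd6 and Cd48 lay below that of Ighm, and in both stimulated libraries those of Cd44 and Cd48 did. Free RNA as a source of shares in this range was not tested.

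The genes differed in how their UMIs were spread over cells. In thinned stimulated WT cells, 6.19% of cells held 3 or more UMIs of Cd69, against 0.539% of unstimulated cells, and the highest count in 1 cell was 24. The variance of the Cd69 count over cells was 2.65 times its mean, against 1.40 in unstimulated cells and 1.99 in IFT20-KO cells. The 10% of cells with the most Cd69 held 58.0% of its UMIs in stimulated WT, 78.6% in unstimulated WT and 56.0% in IFT20-KO cells. For Cd48 in stimulated WT cells this share was 80.0%. Both higher shares came with fewer cells that held any UMI of the gene. Cd5 showed a variance of 2.58 times its mean in stimulated WT cells, and 16.8% of cells held 3 or more UMIs, against 2.52% of unstimulated cells. Cd48 stayed close to the spread of pure counting, with a variance of 1.02, 1.09 and 1.07 times its mean in the 3 libraries. Its mean was only 0.24, 0.14 and 0.14 UMIs per cell. The ratio of variance to mean depends on the mean, so it does not rank genes of unlike level. At this depth 22.0% of unstimulated WT, 12.2% of stimulated WT and 10.7% of IFT20-KO cells held no UMI of any of the 6.

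**Figure D4:**
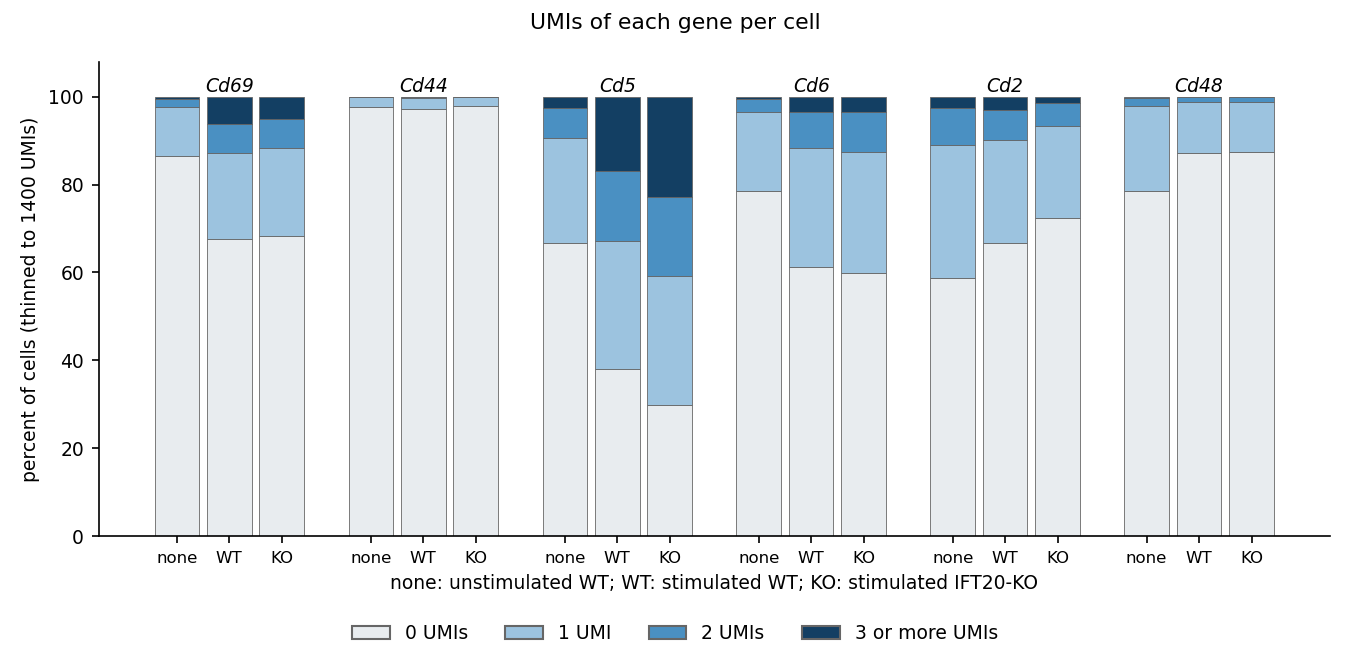
Percent of cells (vertical axis) with 0, 1, 2 and 3 or more UMIs of each gene in unstimulated WT, stimulated WT and IFT20-KO cells, each cell thinned to 1400 UMIs. Cells with 3 or more UMIs of Cd5 made up 2.52%, 16.8% and 22.8% of the 3 libraries, and those of Cd44 and Cd48 stayed under 1%.

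Stimulated IFT20-KO cells had less Cd2, Cd44 and Cd69 mRNA and more Cd5 mRNA than stimulated WT cells on the CPM scale. Cd5 was the gene with the highest ratio of the 6, at 1.18-fold more, and Cd2 the one with the lowest, at 1.29-fold less. None of the 6 passed 1.5-fold in either direction, against 13.4% of 13504 genes upward and 3.27% downward. The median log2 ratio of the 6 was -0.12 and that of all genes 0.14, so that a gene at the median of all genes was itself higher on this scale.

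Cd2 had a log2 ratio of -0.37 (-0.40 to -0.35), Cd44 of -0.29 (-0.40 to -0.18) and Cd69 of -0.17 (-0.19 to -0.14). Cd48 was at -0.08 (-0.12 to -0.04), Cd6 at 0.03 (0.01 to 0.05) and Cd5 at 0.24 (0.23 to 0.25). Measured from the median of all genes, Cd2 was at -0.51, Cd44 at -0.42, Cd69 at -0.30, Cd48 at -0.21, Cd6 at -0.10 and Cd5 at 0.10. The sign of Cd6 therefore flipped with the scaling. Per cell without scaling, all 6 genes were lower in IFT20-KO cells, with log2 ratios from -0.999 for Cd2 to -0.39 for Cd5, beside a median of 5014.5 against 12167 UMIs per cell. On that scale 5 of the 6 passed 1.5-fold downward, as did 37.4% of all genes, and the median of all genes was -0.49.

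The 2 libraries differed in their mix of shallow and deep cells, with 5517 of 13920 IFT20-KO cells and 2147 of 9903 WT cells under 3000 UMIs. In the lowest band all 6 genes were lower in IFT20-KO cells, from -1.19 (-1.45 to -0.94) for Cd44 and -0.93 for Cd2 to -0.39 for Cd6 on the log2 scale. This band was not matched in depth, since 421 of its WT cells and none of its IFT20-KO cells had under 1400 UMIs. The lowest count of a barcode was 709 UMIs in stimulated WT and 1493 in IFT20-KO. Cd2 was lower in all 4 bands, with log2 ratios of -0.93, -0.43, -0.61 and -0.54 from the lowest to the highest. Cd69 and Cd48 were lower in all 4 bands too, with log2 ratios of -0.84 to -0.17 for Cd69 and of -0.51 to -0.24 for Cd48. Cd5 was at -0.41 in the lowest band and at 0.25, 0.20 and 0.08 in the others. Cd6 lay between -0.39 and 0.16, and Cd44 was at 0.28 (-0.26 to 0.85) between 3000 and 6000 UMIs and below 0 in the other bands. What part the mix of cells had in these ratios was not tested.

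Il2ra, the gene of the interleukin-2 receptor α chain, stood at 15.03, 185 and 202 CPM in the 3 libraries. After thinning, 111 of 7230 unstimulated WT cells, 2334 of 9482 stimulated WT cells and 3998 of 13920 IFT20-KO cells held an Il2ra UMI. In stimulated WT cells all 6 genes were higher in cells with an Il2ra UMI than in cells without one. Cd44, Cd69, Cd2 and Cd48 passed 1.5-fold, 4 of the 6, as did 17.4% of the 10719 genes with at least 10 UMIs in these cells. Of the genes with at least 100 UMIs, as all 6 had, 12.5% did. The median log2 ratio of the 6 was 0.63, against 0.16 for all genes.

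Cd44 showed the highest ratio, with 37.3 CPM in cells with and 15.8 CPM in cells without an Il2ra UMI. Its log2 ratio was 1.24 (0.89 to 1.59), from 122 and 158 UMIs, and came to 0.30 in cells thinned to 3000 UMIs. Cd69 stood at 609 against 370.3 CPM, a log2 ratio of 0.72 (0.64 to 0.80). Cd2 stood at 476 against 304 CPM and Cd48 at 139 against 90.4 CPM, log2 ratios of 0.65 (0.56 to 0.74) and 0.62 (0.45 to 0.78). Cd2 and Cd48, lower after stimulation in summed CPM and after thinning, were thus higher in stimulated WT cells with Il2ra than in those without. So was Cd44, which was lower after stimulation in summed CPM but higher in the thinned cells, at 21.1 against 16.4 CPM. Cd5 was at 0.34 (0.29 to 0.40), and Cd6, at 0.09 (0.00 to 0.18), was nearly level.

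The level of Cd2 and Cd48 was higher at each step in the number of Il2ra UMIs in stimulated WT cells. Cd2 stood at 304, 422, 604 and 836 CPM in cells with 0, 1, 2 and 3 or more Il2ra UMIs. Cd48 stood at 90.4, 116, 202 and 273 CPM in the same cells. Cd69 went from 370.3 to 790.5 CPM between 0 and 2 UMIs and stood at 616 CPM (504 to 744.5) in the 123 cells with 3 or more. Over single cells the relation was weak, with Pearson r of log1p values from 0.02 for Cd6 to 0.13 for Cd2 over 9482 cells that share 1 library and 1 depth.

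In IFT20-KO cells all 6 genes were again higher in cells with an Il2ra UMI, but none passed 1.5-fold, as did 8.05% of 11292 genes and 3.47% of those with at least 100 UMIs. Cd69 was at 0.45 (0.38 to 0.52), Cd44 at 0.45 (0.10 to 0.78), Cd2 at 0.41 (0.33 to 0.50), Cd48 at 0.29 (0.15 to 0.43), Cd5 at 0.25 (0.21 to 0.29) and Cd6 at 0.17 (0.10 to 0.24) on the log2 scale. The median was 0.35, against 0.12 for all genes. Cells with 3 or more Il2ra UMIs had 397 CPM of Cd2 (329 to 475) in IFT20-KO and 836 CPM (705 to 984.5) in WT. For Cd48 these cells had 133.5 CPM (95.4 to 182) in IFT20-KO and 273 CPM (200.5 to 363) in WT. The counting intervals of the 2 libraries did not overlap for these genes. In the same cells Cd69 stood at 681 CPM (591 to 781) in IFT20-KO and 616 CPM in WT, Cd5 at 1522 CPM (1386 to 1668) and 1243 CPM (1082 to 1421), Cd6 at 504 CPM (427 to 591) and 401 CPM (312 to 507), and Cd44 at 40.05 CPM (20.7 to 69.97) and 69.7 CPM (36.01 to 122). The intervals of these 4 genes overlapped. Cells with 3 or more Il2ra UMIs were few, 214 of IFT20-KO and 123 of WT. In cells with none, Cd48 stood at 93.8 CPM (88.8 to 99.0) in IFT20-KO and 90.4 CPM (84.6 to 96.5) in WT. With 1 Il2ra UMI it stood at 111 and 116 CPM, and with 2 at 125 and 202 CPM. Cd2 in cells with none stood at 237 CPM in IFT20-KO and 304 CPM in WT. These cells were not matched between libraries in UMI count before thinning. In unstimulated WT cells the 111 cells with an Il2ra UMI had log2 ratios of 0.73 (0.27 to 1.17) for Cd48, 0.52 (0.19 to 0.82) for Cd2 and 0.42 (0.05 to 0.76) for Cd5. The intervals of Cd69, Cd44 and Cd6 spanned 0, and Cd48 alone passed 1.5-fold, as did 23.1% of 10262 genes and 18.3% of those with at least 100 UMIs.

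**Figure D5:**
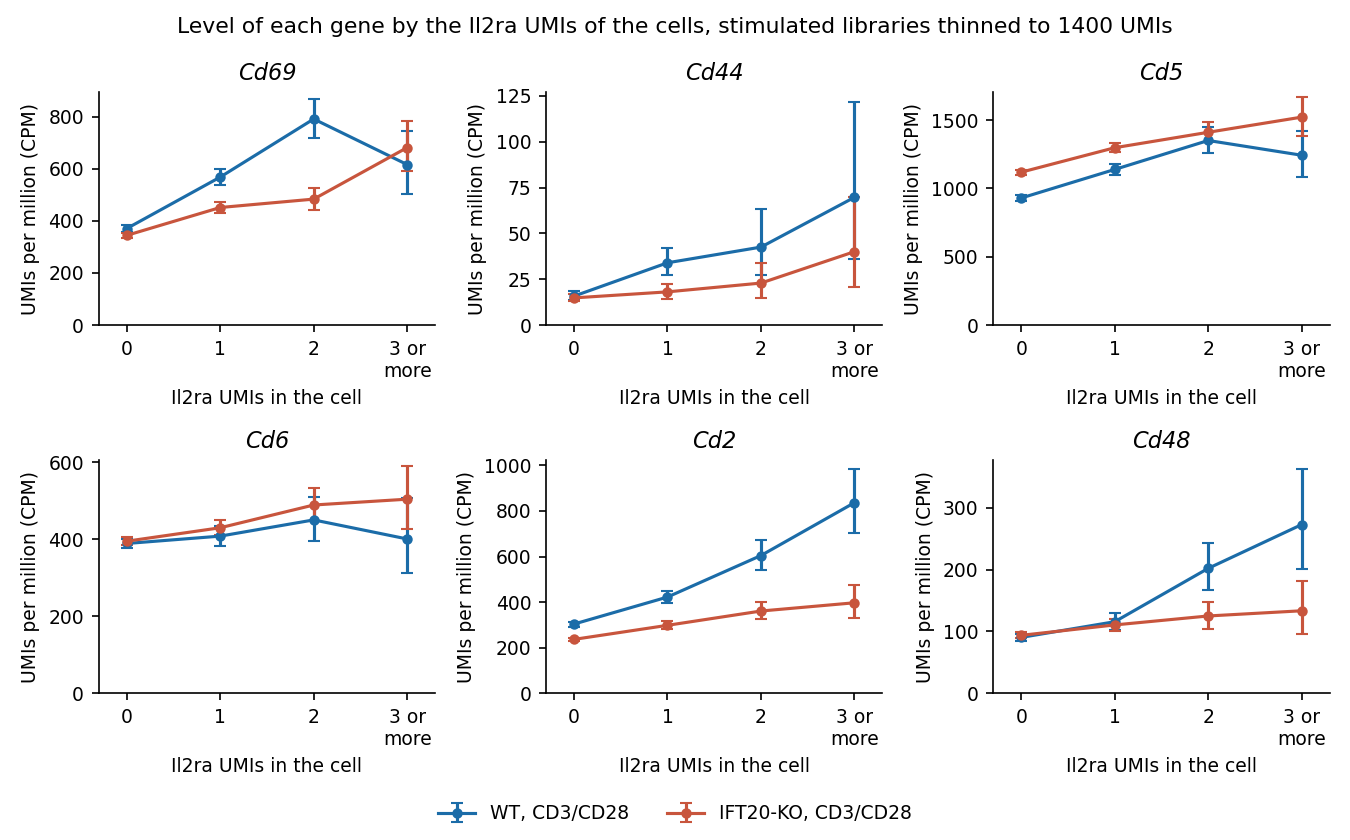
CPM of each gene (vertical axis) in cells with 0, 1, 2 and 3 or more Il2ra UMIs (horizontal axis) in stimulated WT and stimulated IFT20-KO cells, each cell thinned to 1400 UMIs, with exact 95% Poisson intervals. Cd2 in WT cells goes from 304 to 836 CPM and in IFT20-KO cells from 237 to 397 CPM.

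Il2ra was itself more abundant in shallow cells, with 443 CPM in stimulated WT cells under 3000 UMIs and 175.5 CPM in those of 12000 or more. Within bands of the UMI count before thinning, the ratios differed. In the highest band of stimulated WT cells they were 0.29 (0.12 to 0.45) for Cd2, 0.65 (-0.08 to 1.34) for Cd44, 0.18 (-0.13 to 0.47) for Cd48, 0.07 (-0.09 to 0.24) for Cd69, -0.05 for Cd6 and -0.07 for Cd5. In the lowest band they were 0.54 (0.40 to 0.69) for Cd2, 0.72 (0.23 to 1.21) for Cd44, 0.57 (0.30 to 0.84) for Cd48, 0.30 (0.19 to 0.41) for Cd69, 0.01 (-0.07 to 0.09) for Cd5 and -0.25 (-0.39 to -0.10) for Cd6. In stimulated WT cells the interval lay above 0 in 3 of the 4 bands for Cd2 and for Cd69, and in 2 for Cd48. It did so in 1 for Cd44 and for Cd5, and in none for Cd6. In IFT20-KO cells the intervals of Cd44, Cd48 and Cd6 spanned 0 in every band. That of Cd5 lay above 0 only between 3000 and 6000 UMIs, and those of Cd2 and Cd69 in every band but the highest. Without any thinning, the median of the 6 was 0.11 in stimulated WT and -0.05 in IFT20-KO cells.

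Of the pairs of the 6 genes, Cd5 and Cd6 had the highest correlation over cells in stimulated WT, and Cd5 with Cd69 and Cd5 with Cd6 had nearly the same one in IFT20-KO cells. Of thinned stimulated WT cells with a Cd5 UMI, 44.2% also held a Cd6 UMI, against 29.7% of cells without Cd5, with r of 0.26 over cells. In IFT20-KO cells these shares were 43.8% and 31.8%, and in unstimulated WT cells 29.7% and 17.4%. Cd69 and Cd5 had r of 0.22 in both stimulated libraries, equal to 2 decimals to that of Cd5 and Cd6 in IFT20-KO cells, and of 0.00031 in unstimulated cells, where 33.5% of cells with and 33.4% of cells without a Cd69 UMI held Cd5. Cd44 and Cd69, the markers most used for activation on the protein level, were seen together in 116 of 9482 stimulated WT cells. Among cells with a Cd69 UMI 3.78% held Cd44, against 2.23% of cells without. The pairs were not examined within bands of the UMI count before thinning.

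Other marker genes split the same cells differently. In stimulated WT cells, the 642 cells with an Il2 UMI, which encodes the growth cytokine of T cells, had log2 ratios of 0.68 (0.56 to 0.80) for Cd69, 0.49 for Cd5 and 0.49 for Cd6, and of 0.05 (-0.11 to 0.22) for Cd2 and -0.14 (-0.48 to 0.18) for Cd48. The 141 stimulated WT cells with a UMI of Mki67, a gene of dividing cells, had 70.9 CPM of Cd44 against 20.3 CPM, a log2 ratio of 1.80 (0.91 to 2.57) from 14 UMIs. In the same WT cells Cd48 was at 1.08 (0.60 to 1.52), Cd5 at 0.64, Cd2 at 0.57, Cd69 at 0.55 and Cd6 at 0.24 (-0.07 to 0.54). The 473 IFT20-KO cells with a Mki67 UMI gave 1.56 (0.97 to 2.11) for Cd44, 0.25 for Cd69 and 0.22 for Cd5. Intervals of Cd2, Cd48 and Cd6 spanned 0 in these IFT20-KO cells. In unstimulated WT cells, the 152 cells with a UMI of Foxp3, the factor of regulatory T cells, had log2 ratios of 0.66 (0.25 to 1.04) for Cd48 and 0.58 (0.31 to 0.84) for Cd2. Unstimulated cells with a Ly6c1 UMI had less Cd5 and Cd6, at -0.46 (-0.57 to -0.35) and -0.41 (-0.55 to -0.26). None of these splits was examined within bands of the UMI count before thinning.

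Of the CD2 and SLAM family, 9 genes had enough UMIs, and 4 were at least 1.5-fold higher and 2 lower after stimulation. Of all genes, 28.6% were higher and 34.3% lower by this measure. The 4 included a gene with 34 against 7 UMIs, whose interval of -0.57 to 2.04 spanned 0, and a gene with 86 against 1. Cd48 was among the 2 lower genes. Slamf1, a self-binding receptor of this family, went from 17.2 to 165 CPM, a log2 ratio of 3.26. Cd84, another self-binding member, was at -0.67, Ly9 at -0.26 and Slamf6 at -0.09, beside Cd2 and Cd48. In IFT20-KO against WT, none of the 9 passed 1.5-fold, against 13.4% of all genes upward and 3.27% downward. Slamf6 at 0.32, Cd84 at 0.21 and Slamf1 at 0.18 lay above the median of all genes, and Cd2 had the lowest ratio of those with at least 50 CPM.

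Of 30 listed ligands and partners of the 6 proteins, 26 had enough UMIs. After stimulation 8 were at least 1.5-fold higher and 12 lower, with a median log2 ratio of -0.21. Among all genes 28.6% were higher and 34.3% lower, with a median of -0.09. S1pr1, the egress receptor that CD69 holds back, went from 294 to 8.89 CPM, a log2 ratio of -5.05. Sh2d1a, the adaptor of SLAM family receptors, was at -1.85 and Lgals1, which encodes galectin-1, at -1.57. Sh2d2a, a T cell adaptor, was at 1.43, Lcp2, the adaptor SLP-76, at 1.12 and Csnk2b, which encodes a casein kinase subunit, at 0.89. In IFT20-KO against WT 1 of the 26 was higher and 2 lower by 1.5-fold, against 13.4% and 3.27% of all genes. Lgals1 was at -0.67, Ezr, which links CD44 and other receptors to actin, at -0.49, and the related Msn at 0.22. Alcam, the ligand of CD6, went from 0.673 CPM in unstimulated to 47.5 CPM in stimulated WT cells.

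Of 29 other adhesion and surface receptors of T cells, 3 were at least 1.5-fold higher and 17 lower after stimulation. Their median log2 ratio was -0.71. Among all genes 28.6% were higher and 34.3% lower, with a median of -0.09. Cd81 was at 1.63, Cd28, the receptor of one of the antibodies used, at 0.92 and Cd53 at 0.59. Itga4, an integrin subunit, was at -3.08 and its partner Itgb7 at -2.90. In IFT20-KO against WT 8 were higher and none lower by 1.5-fold, against 13.4% and 3.27% of all genes. Of the receptors with at least 50 CPM in a library of this comparison, Cd81 at 0.76 was the member of these 8. Itga4, at 14.2 CPM in stimulated WT and 30.9 CPM in IFT20-KO cells, was also among these 8, at 1.12. Ptprc, the phosphatase CD45, at 0.51 and Itgb1 at 0.45 came next without passing 1.5-fold. Cd9 at -0.29, Cd53 at -0.09 and Cd52 at -0.04 had the lowest ratios at this level.

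The genes whose pair of log2 ratios lay nearest to that of each member were sought among 3435 genes with at least 50 CPM in a library. Cd5 was nearest to Kcna3, the potassium channel Kv1.3 of T cells, at a distance of 0.008, and 14 genes lay within 0.1. Cd69 had 57 genes within 0.1, with Kars the nearest, and Cd6 had 79, with Malsu1 the nearest. Cd48 had 26, with Rab35 the nearest, and Cd44 had 6, with Gng5 the nearest. Cd2 had none within 0.1, and Ier3ip1 was the nearest at 0.103. Over single stimulated WT cells thinned to 1 depth, Ptprc had the highest correlation with Cd69 (r of 0.32), Cd5 (0.40) and Cd2 (0.23). Cd5 had the highest with Cd6 (0.26). Hspa5 came next for Cd69 (0.31), Cd5 (0.38) and Cd6 (0.23), and the mitochondrial gene mt-Co1 for Cd2 (0.21). Then mt-Co3 followed for Cd69 (0.27) and Cd2 (0.205), and Tfrc for Cd5 (0.33). These values came from 9482 cells of 1 library and were not taken within bands of the UMI count before thinning. Cd48 had no gene at or above 0.2, and Cd44 was detected in too few cells.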

How the data were processed

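Single-cell RNA libraries of sorted spleen CD4+ T cells, of unstimulated WT, stimulated WT and IFT20-KO cells, with 1 library per condition, were re-analysed. The authors deposited counts of UMIs per gene and called barcode from Cell Ranger (3.1.0 in the file headers, genome mm10), without normalization. Kept were barcodes with over 200 genes and with mitochondrial UMIs under 15%, which left out 222, 417 and 12. The lowest UMI count of a barcode was 500, 709 and 1493, and whether this came from cell calling or another filter was not tested. Doublets were not removed.

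UMIs were summed per library and scaled to CPM with exact Poisson intervals. Log2 ratios carry an exact binomial interval, from the UMIs, and shares of cells a Clopper-Pearson interval, all at 95%. PCR copies are collapsed by UMI, and cells of 1 library are not replicates, so no p-value was computed. A gene counted as called at 1.5-fold, with 0 UMIs in a library set to 3 for this count over all genes. Cells were thinned without replacement to 1400 UMIs. The intervals were tried on drawn Poisson totals per gene, the model that they assume. They held 95% of 200 changed ratios in the draw for stimulation and 98.5% in that for knockout. Such draws cannot show how the intervals do where counts spread more than Poisson over cells.

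The members, lists, marker splits and motifs were chosen with earlier results of these data known. Named from each list were the 3 highest and 3 lowest ratios among genes at 50 CPM or above in a library of the comparison, and for each member the 3 nearest genes by their 2 log2 ratios and the 3 with the highest correlation of log1p counts, from 0.2 up, among genes in at least 10% of thinned cells. Not every gene so named is printed, and some are not reported here. Neighbours were named by position, and the genes used to split cells by choice. Of 31053 feature identifiers 31011 are in GENCODE M21. Alternatives were other scalings, cell filters, depths and minimums of UMIs, and 1, the mean of per-cell fractions of cells with at least 1400 UMIs, was added after seeing the data. Python 3.11.15, numpy 2.4.6, scipy 1.17.1, pandas 2.3.3 and matplotlib 3.10.9 were used.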

Additional observations from a re-analysis of the deposited data

How the results depend on the processing

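Cd69, Cd5 and Cd6 kept their direction after stimulation under every alternative, UMIs per cell included. Cd2 and Cd48 kept theirs under every alternative but UMIs per cell. Cd2, at -0.54, came to -0.04 in cells with 3000 to 10000 UMIs, so its lower level was nearly absent there. In IFT20-KO against WT only Cd69 and Cd2 kept their direction under every alternative run, UMIs per cell included. The median of the 6 after stimulation, 0.31, became 1.66 as UMIs per cell, 0.22 without low-UMI cells (under 33.3% of their library's median UMI count), 0.57 as the mean of per-cell fractions, 0.74 thinned to 1400 UMIs, 0.72 as the mean of per-cell fractions of cells with at least 1400 UMIs (added after seeing the data) and 0.21 without ribosomal and mitochondrial genes in the total. As UMIs per cell, 5 genes passed 1.5-fold upward and 0 downward, against 71.1% and 9.21% of all genes. The number downward was 2 without low-UMI cells, with a stricter filter (over 1000 genes, mitochondrial UMIs under 10%) and without ribosomal and mitochondrial genes. Cd44 turned to 1.05 as UMIs per cell, 0.14 as per-cell fractions, 0.34 as fractions of cells with at least 1400 UMIs and 0.36 thinned, and Cd2 and Cd48 to 0.81 and 0.37 as UMIs per cell.

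The median in IFT20-KO against WT, -0.12, became -0.75 as UMIs per cell, 0.012 in cells with 3000 to 10000 UMIs, -0.014 without low-UMI cells, -0.26 with median-ratio scaling and -0.059 with the stricter filter. As UMIs per cell, 5 genes passed 1.5-fold downward, against 37.4% of all genes. Cd44 turned to 0.14 in cells with 3000 to 10000 UMIs, Cd5 and Cd6 to -0.39 and -0.59 as UMIs per cell, Cd6 to -0.10 with median-ratio scaling and Cd48 to 0.0020 without low-UMI cells.

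For Il2ra in stimulated WT cells, the median of 0.63 became 1.07 for at least 2 Il2ra UMIs against none and 0.40 with the stricter filter. It became 0.11 without thinning and 0.22 thinned to 3000 UMIs, and Cd5 turned to -0.034 without thinning. Cd44, at 1.24, came to 0.30 both without thinning and thinned to 3000 UMIs. At 3000 UMIs Cd69, at 0.38, and Cd2, at 0.34, lay above it. In IFT20-KO cells the median of 0.35 became 0.53 for at least 2 UMIs and -0.053 without thinning, where Cd69 was at -0.0086, Cd44 at -0.10, Cd5 at -0.10, Cd6 at -0.0077 and Cd48 at -0.10. The median share of cells with a UMI of the 6, 50.04%, 75.9% and 63.5% in the 3 libraries, became 53.9%, 80.9% and 66.0% with the stricter filter and 21.5%, 32.8% and 29.7% after thinning, and 74.6% in stimulated WT with all barcodes. With a minimum of 1 and of 200 UMIs the median of all genes after stimulation was -0.30 and -0.05. The causes of these changes were not tested. No paired analysis was possible because each condition has 1 library. Depth limits Cd44 most, with 585 to 1490 UMIs per library.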
